A study of Mus musculus with 48 samples.

Results

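Kidneys of mice given vancomycin into a vein at 200 mg/kg were compared with kidneys of mice given 50 mg/kg by the same route. Both groups were 6 female BALB/c mice that received 7 daily intravenous (iv) injections and were killed on day 8, and 1 array was run per mouse, so the comparison uses 12 of the 48 arrays of the study. It contains no saline array: both groups carry the drug and the injections, and the difference is the step from the lower to the middle of the 3 doses. The other 36 arrays are iv saline, iv 400 mg/kg, and saline or vancomycin at 50, 200 and 400 mg/kg given into the peritoneum (ip), and they are used below only to place this step. The labels used here give no age for the mice.

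Vancomycin is a glycopeptide antibiotic used against Gram-positive bacteria. It leaves the body mainly through the kidney, where it is filtered and also handled by the proximal tubule, the segment that reabsorbs most of the filtered solutes by means of brush border transporters and endocytic receptors. Injured proximal tubule cells lose transporters and metabolic enzymes and make proteins that the healthy tubule makes little of, among them KIM-1 (Havcr1), clusterin and several plasma-type proteins. Inflammatory cells and matrix-forming cells then accumulate around the tubules.

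Whole-kidney RNA was measured on Affymetrix arrays with 45101 probe sets, and the values below are log2 intensities, on which a difference of 1 is a 2-fold change. Array medians ran from 3.35 to 3.50 at 50 mg/kg and from 3.36 to 3.55 at 200 mg/kg, and their means differed by 0.01 (two-sided exact permutation test over 924 splits, p = 0.669). The array of mouse #009 at 50 mg/kg stood apart: its median deviation from the 50 mg/kg mean over all named genes was -0.32, against -0.02 to 0.12 in the other 11. Its values are in every result below unless a sentence says otherwise. The tissue was kidney by its markers, with uromodulin (Umod), the main protein of the thick ascending limb, at 13.21 ± 0.12 (SD, n = 6) at 50 mg/kg and 13.29 ± 0.10 (SD, n = 6) at 200 mg/kg. Only 24.4% of the table lies in stretches whose probe sets can be named, through the offset between values and identifiers described with the processing, so a gene that goes unmentioned may not have been readable. In whole-kidney RNA, fewer cells of a type and less RNA per cell cannot be told apart.

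Promoter sequences are shown first for 4 genes whose levels were higher at 200 mg/kg, because interferon-responsive genes and an amino acid stress gene were among the genes that stood higher. Of the 4 only Asns passed the test described below. Each line gives the 100 bases before the annotated start, 5′ to 3′ on the gene's strand, from RefSeq on GRCm38.p6. In Gbp7, Gbp2 and Oas1a the capitals mark the core of the interferon-stimulated response element, which is GAAA, any 2 bases and GAAA again, or on the other strand TTTC, any 2 bases and TTTC. In Asns they mark TGATGNAA, the core of the amino acid response element, where N is any base.
Gbp7 (chr3:142530236-142530335, + strand): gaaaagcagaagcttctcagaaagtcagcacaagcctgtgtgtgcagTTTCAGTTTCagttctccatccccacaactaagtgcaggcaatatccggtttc
Gbp2 (chr3:142620563-142620662, + strand): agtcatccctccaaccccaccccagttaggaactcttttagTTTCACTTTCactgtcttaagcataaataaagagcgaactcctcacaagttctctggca
Oas1a (chr5:120907526-120907625, - strand): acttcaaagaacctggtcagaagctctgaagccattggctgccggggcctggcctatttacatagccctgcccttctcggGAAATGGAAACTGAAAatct
Asns (chr6:7693210-7693309, - strand): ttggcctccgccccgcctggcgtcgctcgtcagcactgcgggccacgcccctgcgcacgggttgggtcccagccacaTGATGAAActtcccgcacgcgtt
In Oas1a the capitals are a pair of overlapping matches. In the 250 bases before the start, the interferon-stimulated core on either strand occurred in 12 of the 22 interferon response genes with a promoter entry (54.5%). It occurred in 936 of 27025 promoters in all (3.46%) and in 132 of 4308 tested named genes (3.06%). TGATGNAA on either strand occurred in 4 of 25 endoplasmic reticulum stress and amino acid response genes (16%). It occurred in 1056 of 27025 promoters (3.91%) and in 88 of 4308 tested named genes (2.04%). The lists group genes by known response, so these shares do not show an effect of the dose. Of the 7 named genes that passed the test below, 5 have a promoter entry. Among them the interferon-stimulated core occurred only in Clca3a1 and TGATGNAA only in Asns. Of the interferon-inducible genes that passed, Ifi202b has an entry without the core and Ifi27l2a has no entry. A match is a description of the letters and does not show that a factor binds there.

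At the higher dose 7 named genes rose: Serpina10, Col1a2, Asns, Osmr, Ifi27l2a, Ifi202b and Clca3a1. They encode a serpin of the coagulation system, a collagen chain, a metabolic enzyme, a cytokine receptor, a pair of interferon-inducible proteins and a chloride channel regulator. No named gene with a lower mean passed the test. Among all 21865 probe sets tested, 20 passed an adjusted p of 0.05 (0.0915%), of which 19 were higher at 200 mg/kg (0.0869%) and 1 was lower (0.00457%). Among the 5293 named genes 7 passed (0.132%), by limma's moderated test with Benjamini-Hochberg adjustment over all probe sets tested. The other 13 probe sets that passed cannot be named, and the largest of those differences was 6.53.

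The passing values lay close to the threshold, with a smallest adjusted p of 0.0271, and the count moved with the arrays used. Without the array of mouse #028 (200 mg/kg) 695 probe sets passed, and without that of #026 (200 mg/kg) 312 passed. Without #009 2 passed, and without any one of the other 9 mice (#007, #0078, #010, #011, #012, #025, #027, #029 and #030) none passed. A fit of all 48 arrays, which takes the spread from all 8 groups, called 885 probe sets. Among named genes it called 280 higher (5.29%) and 24 lower (0.453%). For genes that vary more at 200 mg/kg than in the other groups, that fit understates the spread of the mice compared. Its adjusted p and counts below are therefore too favourable for such genes, among them many injury and myeloid genes. At an unadjusted p of 0.05 the 12-array limma fit had 2757 probe sets (12.6%), 2032 of them higher and 725 lower at 200 mg/kg. The median difference over all probe sets was 0.05, and -0.003 without the low array of mouse #009. The groups did not overlap in 71 of the named genes that were higher (1.34%) and in 9 that were lower (0.17%).

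**Figure D1:**
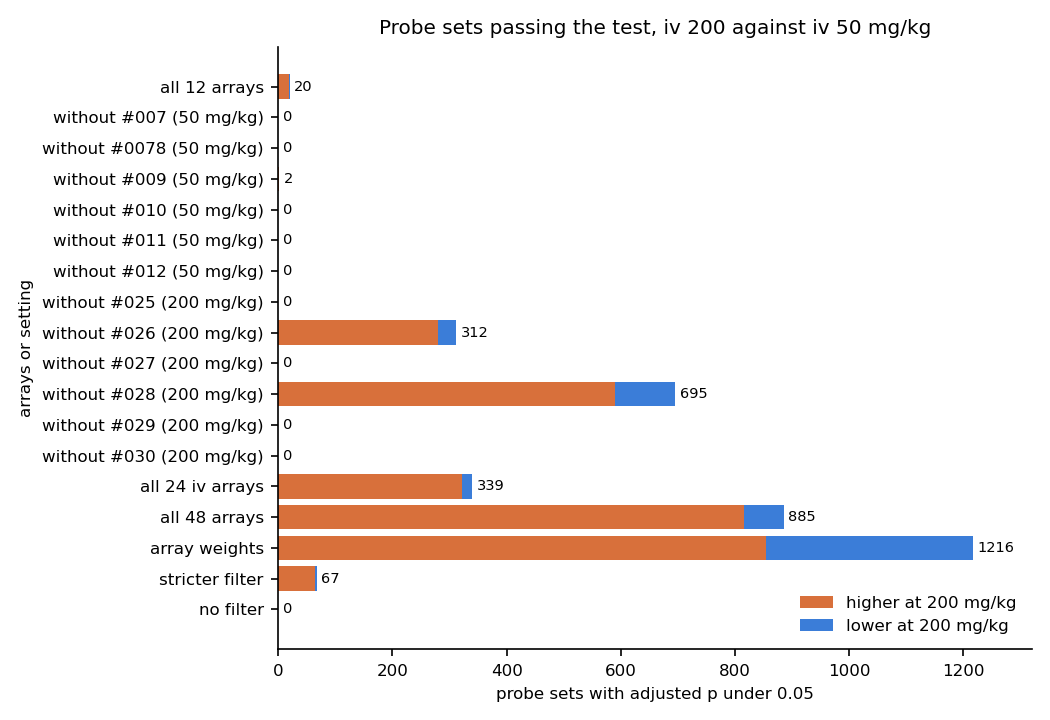
Number of probe sets with an adjusted p under 0.05 (horizontal axis) when all 12 arrays are used, when 1 array is left out, and under 5 other settings (vertical axis), split by direction. The count is 20 with all 12 arrays, 312 without mouse #026, 695 without #028, 2 without #009 and 0 without any one of the other 9 mice.

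Serpina10, the protein Z-dependent protease inhibitor, showed the largest difference among named genes. At 50 mg/kg its log2 intensity ran from 2.56 to 4.08 with a median of 2.62, and at 200 mg/kg it ran from 3.75 to 10.46 with a median of 10.05. Mice #025, #027, #029 and #030 lay near 10, #026 at 7.46, and #028 at 3.75, inside the range of the 50 mg/kg mice. The mean difference was 5.65 ± 0.97 (SE; limma, adjusted p = 0.0493). At 50 mg/kg the mean of 3.05 ± 0.71 (SD, n = 6) was under the table median of 3.47, so the gene passed the filter on low values through the 200 mg/kg group and the difference is taken from a level near background. Iv saline averaged 3.24 and iv 400 mg/kg 11.04.

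Col1a2, the alpha 2 chain of type I collagen, ran from 5.22 to 5.78 with a median of 5.59 at 50 mg/kg and from 6.38 to 9.48 with a median of 8.77 at 200 mg/kg. The groups did not overlap, and #028 and #026 were the lowest of the 200 mg/kg mice. The difference was 2.77 ± 0.45 (SE; limma, adjusted p = 0.0493).

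Osmr, the signalling receptor subunit for the inflammatory cytokine oncostatin M, ran from 4.39 to 6.00 (median 5.70) at 50 mg/kg and from 6.59 to 8.45 (median 7.84) at 200 mg/kg. All 200 mg/kg mice were above all 50 mg/kg mice. The difference was 2.10 ± 0.35 (SE; limma, adjusted p = 0.0493).

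Asns, asparagine synthetase, which is induced when amino acids are short, ran from 3.79 to 4.53 (median 3.97) at 50 mg/kg and from 4.72 to 7.29 (median 6.32) at 200 mg/kg. No value overlapped, although #028 at 4.72 was only just above #012, the highest 50 mg/kg mouse. The difference was 2.11 ± 0.36 (SE; limma, adjusted p = 0.0493). Its promoter holds the TGATGAAA shown above.

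The interferon-inducible Ifi27l2a ran from 7.10 to 8.57 (median 7.80) at 50 mg/kg and from 8.91 to 10.47 (median 9.49) at 200 mg/kg, with no overlap and a difference of 1.78 ± 0.29 (SE; limma, adjusted p = 0.0493). Ifi202b, a member of the p200 family of interferon-inducible DNA-binding proteins, ran from 3.52 to 4.31 (median 3.88) and from 4.29 to 6.34 (median 5.65), a difference of 1.65 ± 0.28 (SE; limma, adjusted p = 0.0493). Its groups overlapped at mouse #028 alone, which lay just below the highest 50 mg/kg mouse, #011.

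Clca3a1, a member of the family of calcium-activated chloride channel regulators, had the smallest adjusted p of the named genes. It ran from 4.35 to 5.87 (median 5.48) at 50 mg/kg and from 6.42 to 7.12 (median 6.87) at 200 mg/kg. Its SD was 0.51 at 50 mg/kg and 0.25 at 200 mg/kg. Among the 7 genes only Clca3a1 and Ifi27l2a had a smaller SD at the higher dose. The 50 mg/kg SD of Clca3a1 includes mouse #009 at 4.35, against 5.35 for the next lowest mouse, and was not computed without it. The groups did not overlap. The difference was 1.46 ± 0.22 (SE; limma, adjusted p = 0.0355), and 1.26 without mouse #009 (adjusted p = 0.0269), which was the lowest mouse at 50 mg/kg.

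**Figure D2:**
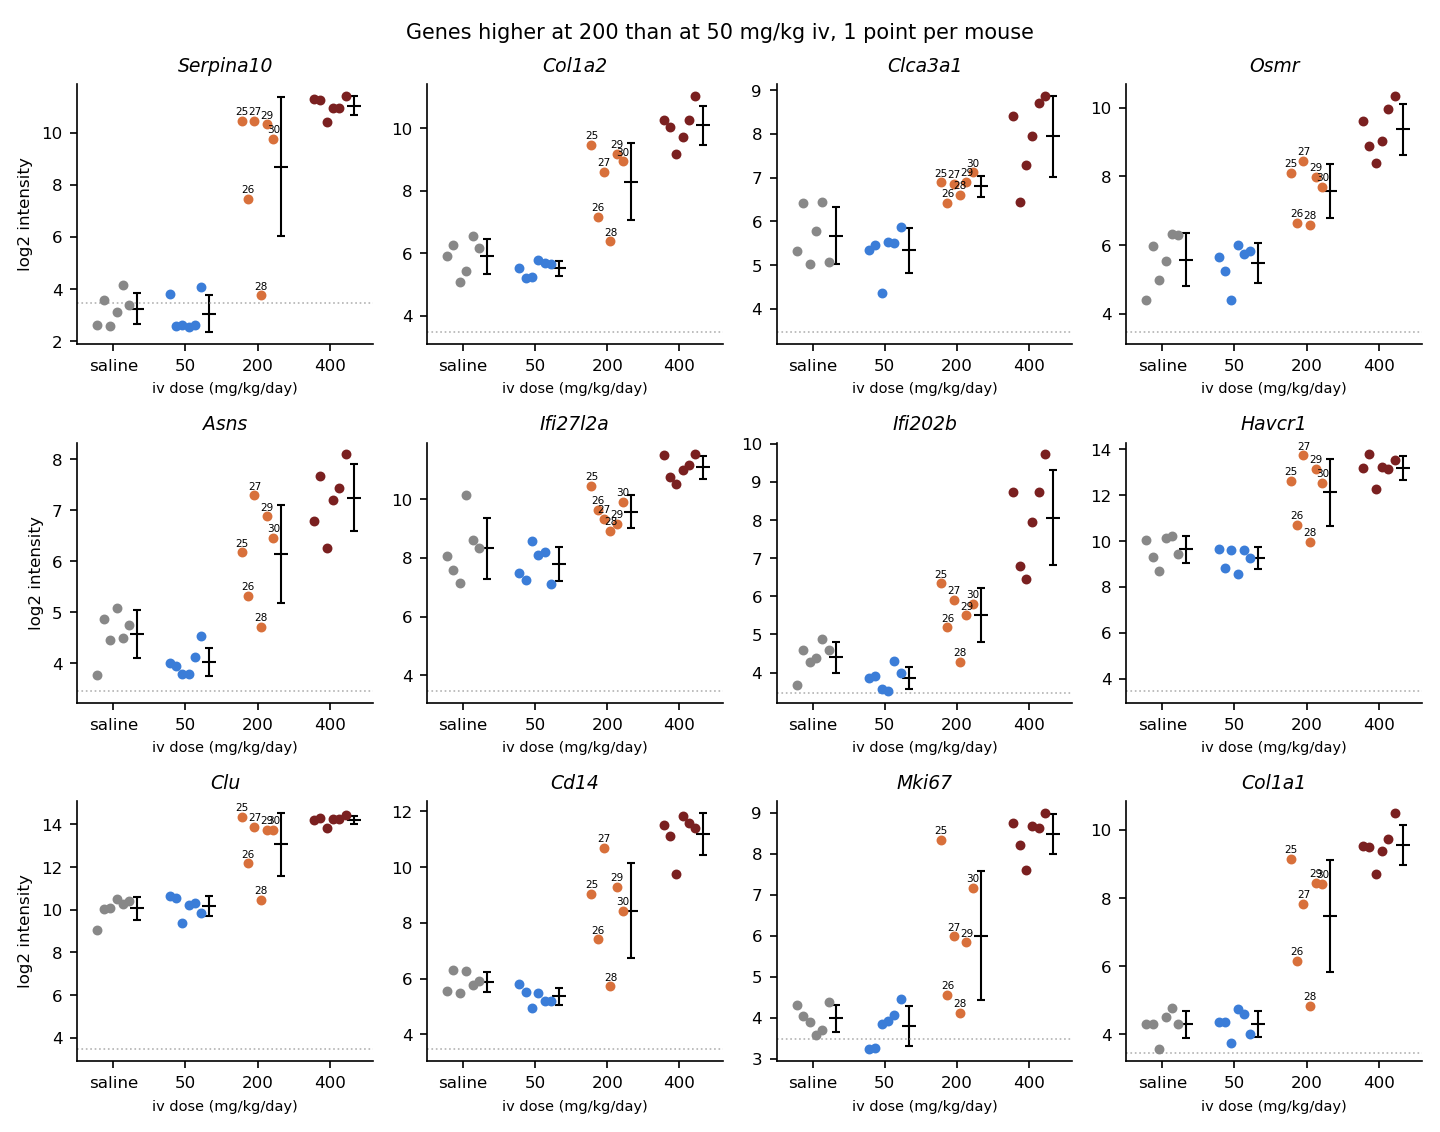
Log2 intensity (vertical axis) of 12 genes in each iv mouse by daily dose in mg/kg (horizontal axis). Points are mice, the bar beside each group is its mean ± SD (n = 6), the labels on the 200 mg/kg points are the last digits of the mouse number, and the dotted line is the table median. Serpina10 at 200 mg/kg spans 3.75 to 10.46, with mouse 28 at the bottom, while Clca3a1 spans only 6.42 to 7.12. Only the first 7 genes, Serpina10 to Ifi202b, passed the test.

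Of the 26 tubular injury genes tested, 24 had a higher mean at 200 mg/kg and 2 a lower one. The median difference was 1.00 (0.86 without mouse #009). None of the 26 passed the 12-array test, 14 were called higher in the 48-array fit and 3 had no overlap (Havcr1, Lgals3 and Ccn2). Over all named genes 3377 were higher and 1916 lower, with a median of 0.07 (0.01 without mouse #009). Of all named genes 5.29% were called higher in the 48-array fit and 1.34% were higher without overlap. These shares also stand beside the list counts below. One of the 26, the ankyrin repeat gene Ankrd1, had a 50 mg/kg mean under the table median, so it passed the filter on low values through the 200 mg/kg group. Havcr1, which encodes KIM-1, a phosphatidylserine receptor that appears on injured proximal tubule cells, ran from 8.56 to 9.64 (median 9.43) at 50 mg/kg and from 9.95 to 13.74 (median 12.58) at 200 mg/kg. Every 200 mg/kg mouse lay above every 50 mg/kg mouse, with #028 at 9.95 and #026 at 10.72 closest to them. The difference was 2.87 ± 0.54 (SE; limma, adjusted p = 0.056; 9.5e-06 in the 48-array fit).

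Clusterin (Clu), a secreted chaperone, ran from 9.40 to 10.64 (median 10.27) at 50 mg/kg and from 10.47 to 14.36 (median 13.76) at 200 mg/kg. Its groups overlapped only through #028, and #025 reached the 14.21 mean of the iv 400 mg/kg mice. The difference was 2.91 ± 0.54 (SE; limma, adjusted p = 0.056; 9.14e-08 in the 48-array fit). The fibrinogen alpha chain (Fga) differed by 3.04 ± 0.71 (adjusted p = 0.0861), and the intestinal-type phosphate transporter Slc34a2 by 2.31 ± 0.57 (adjusted p = 0.0963). The cell cycle inhibitor Cdkn1a (p21) ran from 5.42 to 6.32 and from 5.61 to 8.69, overlapping widely, with a difference of 0.81 ± 0.40 (adjusted p = 0.434). Keratin 20 (Krt20) and Cd44, a hyaluronan receptor, were not tested, being above the table median in 5 and 4 of the 12 arrays. Krt20 had a median of 2.92 at 50 mg/kg, and at 200 mg/kg it ran from 3.03 (#028) to 8.05 (#027) with a median of 5.43. The highest Cd44 value at 50 mg/kg was 3.11, and at 200 mg/kg 4 mice were above it while #026 and #028 lay at 2.65 and 3.01.

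Macrophage and other myeloid markers had the largest median difference of the lists. Of 32 named markers 18 were tested and 14 were left untested, 12 of them under the table median on average in the 12 arrays. Among the 18, 16 were higher at 200 mg/kg and 2 lower, with a median difference of 1.52, none passed the 12-array test and 14 were called higher in the 48-array fit. One of the 18, Ms4a6b, had a 50 mg/kg mean under the table median, so it passed the filter through the 200 mg/kg group. The lipopolysaccharide co-receptor Cd14 ran from 4.94 to 5.82 (median 5.34) at 50 mg/kg and from 5.72 to 10.69 (median 8.74) at 200 mg/kg. Only #028 overlapped with the 50 mg/kg mice, and #027 was the highest. The difference was 3.07 ± 0.61 (SE; limma, adjusted p = 0.0576; 1.64e-06 in the 48-array fit).

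C1qa, a chain of complement C1q that macrophages make, ran from 6.56 to 6.96 and from 7.02 to 9.10 with no overlap, a difference of 1.66 ± 0.31 (adjusted p = 0.056). The lysozyme gene Lyz2 differed by 2.00 ± 0.45 (adjusted p = 0.0756) and Ly86, the MD-1 partner of the Toll-like receptor homolog RP105, by 2.37 ± 0.51 (adjusted p = 0.0689). Csf1r, the receptor for macrophage colony-stimulating factor, differed by only 0.01. The log2 of the summed intensity over the 32 named markers ran from 10.63 to 10.96 at 50 mg/kg and from 10.86 to 12.65 at 200 mg/kg. The 5 named neutrophil markers (Csf3r, Cxcr2, Elane, Fpr2 and Ngp) were all under the table median on average in the 12 arrays, as were 16 of 18 T and NK lymphocyte markers and 13 of 15 B and plasma cell markers.

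Of 8 complement genes tested 6 had a higher mean at 200 mg/kg and 2 a lower one, with a median difference of 0.85. The classical pathway recognition and protease genes C1qa, C1qb and C1ra had higher means, C1ra (a C1r protease) without overlap and by 1.21 ± 0.27 (adjusted p = 0.0736). Cfi, the protease that inactivates C3b, ran from 6.59 to 7.01 and from 7.17 to 10.53, also without overlap, a difference of 2.21 ± 0.45 (adjusted p = 0.0576; 1.47e-06 in the 48-array fit). Cfb, the alternative pathway protease factor B, differed by 0.20 ± 0.17 (adjusted p = 0.696), and the membrane-bound inhibitors Cd55 and Cd59a by -0.11 and -0.18.

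Matrix and fibroblast genes gave the largest number of genes without overlap among the lists. Of 29 tested, 26 were higher and 3 lower, with a median difference of 0.79; Col1a2 passed the test, 9 had no overlap and 16 were called higher in the 48-array fit. Col1a1, the other chain of type I collagen, ran from 3.74 to 4.75 (median 4.36) at 50 mg/kg and from 4.83 to 9.15 (median 8.12) at 200 mg/kg. The gap between the groups was narrow, since #028 at 4.83 lay next to #010 at 4.75. The difference was 3.17 ± 0.59 (SE; limma, adjusted p = 0.056; 2.08e-06 in the 48-array fit). Fibronectin (Fn1) differed by 2.12 ± 0.38 (adjusted p = 0.056) without overlap, and the fibrillar collagen Col5a2 by 1.59 ± 0.33 (adjusted p = 0.0663). The pericyte gene Rgs5 differed by -0.19 and the muscle intermediate filament gene Des by 0.14. The summed intensity of the 38 named markers ran from 12.22 to 12.66 on the log2 scale at 50 mg/kg and from 12.72 to 13.89 at 200 mg/kg.

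Cytokine, chemokine and acute-phase genes were higher in 18 of 20 tested, with a median difference of 1.11; Osmr passed the test and 14 were called higher in the 48-array fit. Lrg1, a secreted leucine-rich glycoprotein of the acute phase, ran from 3.09 to 4.16 (median 3.70) at 50 mg/kg and from 3.95 to 9.27 (median 7.27) at 200 mg/kg. Mouse #028 at 3.95 was within the 50 mg/kg range, and the other 5 were at 6.27 or above. The difference was 3.43 ± 0.68 (SE; limma, adjusted p = 0.0576). Cxcl14 differed by 2.06 ± 0.41 (adjusted p = 0.0576), although a second probe set of the gene gave 0.68. The macrophage chemokine Ccl9 differed by 1.98 ± 0.51 (adjusted p = 0.111). Cxcl12 and Ccl27a, the homeostatic chemokines on the list, differed by -0.23 and -0.24.

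Interferon response genes were higher in 24 of 25 tested, with a median difference of 0.69; none of these 25 passed the 12-array test, 5 had no overlap and 10 were called higher in the 48-array fit. The list does not hold Ifi27l2a and Ifi202b, the interferon-inducible genes that passed. Gbp7, a guanylate-binding protein that is also not on the list and whose promoter is shown above, ran from 5.88 to 6.76 (median 6.68) and from 7.12 to 8.34 (median 7.74) with no overlap, a difference of 1.20 ± 0.21 (adjusted p = 0.055). Gbp2 differed by 1.60 ± 0.35 (adjusted p = 0.0731) and also had no overlap. The membrane-associated antiviral protein Ifitm3 ran from 10.47 to 10.78 and from 11.00 to 12.29, a difference of 1.09 ± 0.20 (adjusted p = 0.056). Oas1a, an oligoadenylate synthetase, differed by 1.11 ± 0.28 (adjusted p = 0.103), and its groups overlapped. In Gbp2, Gbp7 and Oas1a mouse #009 was far below the other 5 mice at 50 mg/kg. Rsad2 and Oas2, other antiviral effectors on the list, differed by 0.04 and -0.07.

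All 14 antigen presentation genes tested were higher at 200 mg/kg, with a median difference of 0.83, and 11 were called higher in the 48-array fit; none passed the 12-array test and none was free of overlap. Psmb8, a catalytic subunit of the immunoproteasome, differed by 1.38 ± 0.28 (adjusted p = 0.0576). Among class II genes, H2-DMa differed by 1.42 ± 0.40 (adjusted p = 0.139) and H2-Ab1 by 1.26 ± 0.35 (adjusted p = 0.132). Mouse #028 had a median deviation from the 50 mg/kg mean of -0.01 over the 14 genes, against 0.35 in #026 and 0.83 to 1.80 in the other 4. The myeloid summed intensity given above was higher at 200 mg/kg together with the complement, interferon, cytokine and class II genes, and its part in those differences was not tested.

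Cell cycle genes were higher in 17 of 20 tested, with a median difference of 0.51, and 9 were called higher in the 48-array fit. Mki67, the proliferation antigen Ki-67, ran from 3.23 to 4.46 (median 3.88) at 50 mg/kg and from 4.12 to 8.34 (median 5.91) at 200 mg/kg. Mice #028 and #025 were the extremes of the higher dose, and #028 lay inside the 50 mg/kg range. The difference was 2.20 ± 0.58 (SE; limma, adjusted p = 0.117; 0.000336 in the 48-array fit). Rrm2, a ribonucleotide reductase subunit, differed by 2.14 ± 0.57 (adjusted p = 0.119), Cks1b, a cyclin-dependent kinase regulatory subunit, by 1.68 ± 0.41 (adjusted p = 0.0961), and the S and G2 phase cyclin Ccna2 by 1.91 ± 0.53 (adjusted p = 0.135). Ccna2 and Ccne1 had 50 mg/kg means under the table median. The G1 cyclin Ccnd1 differed by -0.41.

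Proximal tubule genes were lower at 200 mg/kg in most cases but by smaller amounts. Of 32 transporters and endocytic receptors tested, 29 were lower, with a median of -0.34, and of 34 metabolic enzymes 29 were lower, with a median of -0.39. None passed the 12-array test, and the 48-array fit called 4 lower (Slc13a3, Slc7a8, Dpys and Prodh) and 1 higher (Slco3a1). Over all named genes that fit called 0.453% lower and 5.29% higher. Hpd, a tyrosine catabolic enzyme, had the largest difference. It ran from 12.96 to 13.69 (median 13.32) at 50 mg/kg and from 10.99 to 13.64 (median 11.67) at 200 mg/kg. At 200 mg/kg 4 mice were at or below 11.75, while #026 and #028 were within the 50 mg/kg range. The difference was -1.24 ± 0.40 (SE; limma, adjusted p = 0.192).

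Slc7a8, the LAT2 neutral amino acid exchanger, differed by -0.75 ± 0.18 (adjusted p = 0.0964) and overlapped only slightly. Slc22a12, the urate exchanger URAT1, ran from 11.19 to 11.75 and from 10.68 to 11.31, a difference of -0.55 ± 0.13 (adjusted p = 0.0858). In that gene #027 was the highest of the 200 mg/kg mice and #028 the lowest, as for Havcr1, although Slc22a12 had the lower mean at 200 mg/kg and Havcr1 the higher. The dicarboxylate transporter Slc13a3 differed by -0.81 ± 0.22 (adjusted p = 0.117; 0.0461 in the 48-array fit) and the pyrimidine catabolic enzyme Dpys by -1.09 ± 0.38 (adjusted p = 0.229; 0.0107 in the 48-array fit). The main phosphate transporter Slc34a1 differed by -0.48 ± 0.22 (adjusted p = 0.383), the endocytic receptor megalin (Lrp2) by -0.37 ± 0.18 (adjusted p = 0.43), and the organic anion transporter Slc22a6 by -0.29 ± 0.15 (adjusted p = 0.433).

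Further along the nephron, 15 of 17 loop and distal tubule genes were lower, with a median of -0.25, and 11 of 15 collecting duct genes were lower, with a median of -0.29; none passed the test. Without mouse #027, the lowest of the 12 for the loop and distal list at -0.945, the median of that list was -0.145. Egf, made by the distal convoluted tubule and thick ascending limb, ran from 12.71 to 12.97 and from 11.65 to 12.89, with #026 and #028 inside the 50 mg/kg range, a difference of -0.69 ± 0.19 (adjusted p = 0.134). The calcium-binding protein parvalbumin (Pvalb) differed by -0.98 ± 0.28 (adjusted p = 0.144). Uromodulin differed by 0.08 ± 0.08 (adjusted p = 0.739) and the water channel Aqp2 by 0.21 ± 0.27 (adjusted p = 0.823). The epithelial sodium channel subunit Scnn1a differed by -0.50 ± 0.13 (adjusted p = 0.116), and #028 was the highest of its 200 mg/kg values.

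Among all named genes with a lower mean, Osgin1, an oxidative stress-induced growth inhibitor gene, had the smallest p. It ran from 7.20 to 7.70 (median 7.56) and from 6.15 to 7.05 (median 6.49) with no overlap, a difference of -0.92 ± 0.19 (adjusted p = 0.0576). Clec2h, a C-type lectin-related gene, ran from 7.77 to 8.35 and from 6.68 to 7.86, overlapping through #028, a difference of -0.93 ± 0.20 (adjusted p = 0.0725). Sema3g, a secreted semaphorin on the podocyte list, ran from 8.61 to 9.07 and from 8.07 to 8.46 without overlap, a difference of -0.53 ± 0.12 (adjusted p = 0.0755). Iv 400 mg/kg kidneys averaged 8.39 for Sema3g against 8.55 in iv saline. Between 200 and 50 mg/kg the growth factor Vegfa, also on the podocyte list, differed by -0.64 ± 0.16 (SE; limma, adjusted p = 0.103). The podocyte slit diaphragm gene nephrin (Nphs1) differed by -0.47 ± 0.19 (adjusted p = 0.331). The podocyte list as a whole did not move 1 way: 11 of its 16 genes were lower and 5 higher, with a median of -0.07. Ptgds on that list was higher, by 0.71 ± 0.25 (SE; limma, adjusted p = 0.227). The log2 summed intensity of the 18 named podocyte markers ran from 11.98 to 12.34 at 50 mg/kg and from 12.22 to 12.55 at 200 mg/kg. The others of smallest p were 0610005C13Rik at -0.63, Tmed6 at -0.44, Ehd3, a membrane recycling gene, at -0.81, and Lrrc19 at -0.65, with adjusted p from 0.0772 to 0.103.

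**Figure D3:**
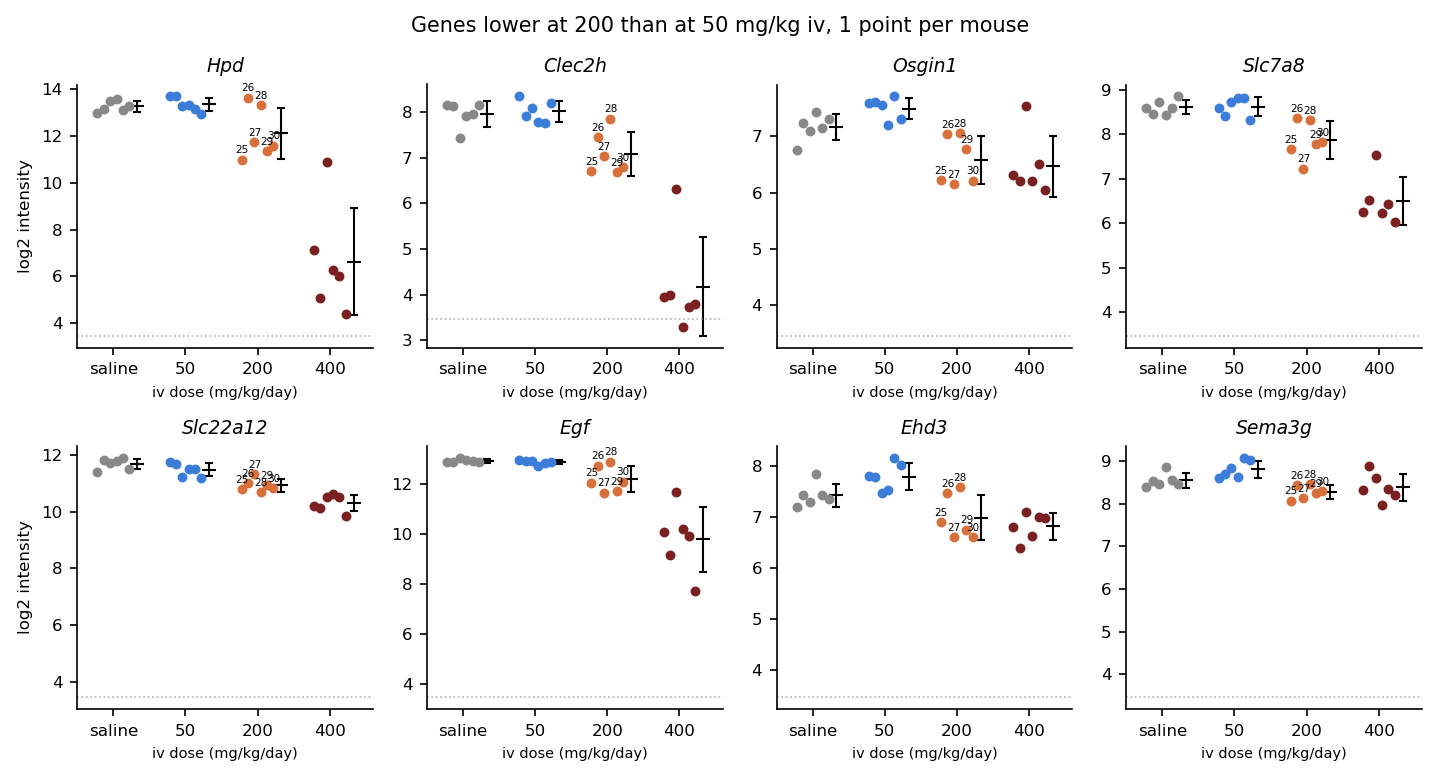
Log2 intensity (vertical axis) of 8 genes with a lower mean at 200 mg/kg in each iv mouse by daily dose in mg/kg (horizontal axis), drawn as mice with mean ± SD (n = 6) and with the 200 mg/kg mice labelled. None passed the test. For Hpd 4 of the 200 mg/kg mice lie at or below 11.75 and mice 26 and 28 lie in the 50 mg/kg range, while Osgin1 and Sema3g have no overlap.

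Stress and metabolic lists differed less. Among 30 endoplasmic reticulum stress and amino acid response genes 22 were higher, but the median was 0.13 (0.05 without mouse #009 and 0.22 without #0078) and only Asns passed; the transcription factor Atf5 differed by 0.70 ± 0.20 (adjusted p = 0.144) without overlap, and the unfolded protein response factors Ddit3, Xbp1 and Atf6 by 0.29, 0.52 and 0.05. The 27 Nrf2 target and antioxidant genes were split 12 higher to 15 lower, with a median of -0.04 (0.01 without #007 and -0.15 without #009), and the glutathione synthesis enzyme Gclc differed by 0.68 ± 0.28 (adjusted p = 0.335). Of 42 oxidative phosphorylation genes 36 were lower, with a median of only -0.10 (-0.15 without #009), and of 34 fatty acid oxidation and peroxisome genes 25 were lower, with a median of -0.16 (-0.26 without #009, -0.25 without #026, -0.08 without #0078 and -0.07 without #029). Ribosomal protein genes were higher in 19 of 20, with a median of 0.18. Fos, Egr1 and Nr4a1, immediate early genes, had wide overlapping ranges: Fos ran from 2.57 to 7.86 at 50 mg/kg and from 3.66 to 8.44 at 200 mg/kg (adjusted p = 0.692).

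**Figure D4:**
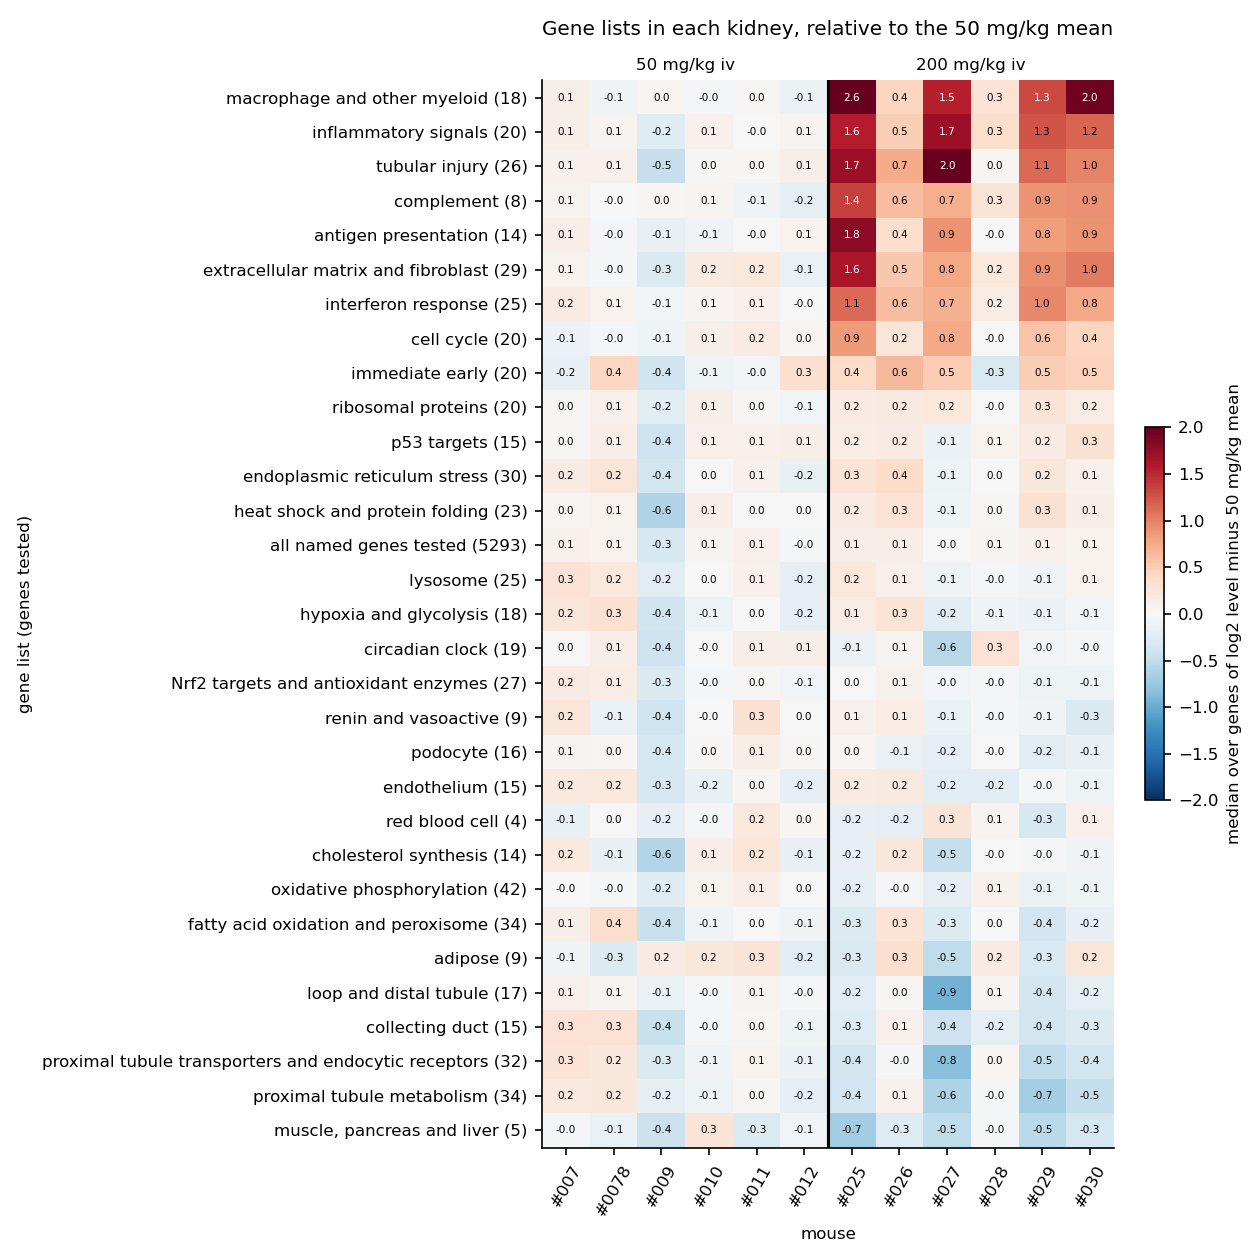
Median over the genes of each list (vertical axis, number of genes tested in brackets) of the log2 level minus the 50 mg/kg mean, in each of the 12 mice (horizontal axis). Myeloid, inflammatory and tubular injury lists reach 2.61, 1.71 and 2.03 in single 200 mg/kg mice but only 0.29, 0.35 and 0.03 in mouse #028, and the array of #009 is low in most lists.

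The 200 mg/kg mice differed strongly among themselves. The median deviation of the 26 tubular injury genes from the 50 mg/kg mean was 1.71 in #025, 0.74 in #026, 2.03 in #027, 0.03 in #028, 1.13 in #029 and 1.00 in #030, while the 50 mg/kg mice lay between -0.46 and 0.12. Over the 18 myeloid genes the values were 2.61, 0.43, 1.55, 0.29, 1.32 and 1.95 in the same order of mice. Thus #025 was highest for myeloid and #027 for tubular injury genes. Among the 71 genes higher without overlap, #028 was the lowest of the 200 mg/kg mice in 50 and #026 in 13, and #025 was the highest in 33 and #027 in 25. For the proximal tubule transporters, #027 lay at -0.84, #029 at -0.50, and #025 and #030 at -0.37, whereas #026 and #028 lay at -0.02 and 0.04.

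The spread between mice differed by gene group. The median SD over all named genes was 0.29 at 50 mg/kg and 0.26 at 200 mg/kg, and the SD was larger at 200 mg/kg in 42.4% of genes. All 50 mg/kg SDs include the low array of mouse #009 (median deviation -0.32 over all named genes) and were not computed without it. For tubular injury genes the median SD was 0.37 and 0.87, larger at 200 mg/kg in 20 of 26. For myeloid genes it was 0.34 and 0.86, larger at 200 mg/kg in 17 of 18, and for antigen presentation genes it was 0.20 and 0.63, larger in all 14.

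The step was set beside mice that share no array with it. Each lower group holds an array with a low 90th percentile of log2 intensity: 8.29 in iv saline #001 and 8.28 in #009. The other iv arrays had 8.62 to 8.75. The part of these 2 arrays in the agreement below was not tested. Between iv 400 mg/kg and iv saline, 7882 of 22018 probe sets passed the test (35.8%). Of the 450 named genes that were called and more than 2-fold higher there, 444 (98.7%) were also higher at 200 than at 50 mg/kg, with a median difference of 0.70. Of the 450, 49 were higher without overlap, against 71 of all 5293 named genes (1.34%). Of the 315 called and more than 2-fold lower at iv 400 mg/kg than in saline, 300 (95.2%) were also lower at 200 mg/kg, with a median difference of -0.37. Of the 3233 not called there, 66% were higher at 200 mg/kg, with a median of 0.06. That split was not computed without mouse #009, whose removal took the median over all named genes from 0.07 to 0.01. Across the 5293 genes the pair of differences had a Pearson r of 0.85 and a Spearman rho of 0.78; genes are not independent replicates, and no p is given.

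The same 450 genes by mouse gave median deviations of 1.16 in #025, 0.36 in #026, 1.01 in #027, 0.11 in #028, 0.86 in #029 and 0.77 in #030. All were above the 50 mg/kg mice, which lay between -0.25 and 0.10, though #028 only narrowly. Hpd, at -6.64 between iv 400 mg/kg and saline, and Egf, at -3.14, were among the genes whose differences there were several times those of the dose step. For Osgin1 the order was turned, with -0.70 there against -0.92 for the dose step.

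The same dose step by the ip route gave no call. Between ip 200 and ip 50 mg/kg, 0 of 22659 probe sets passed limma's test (0%), with 543 at an unadjusted p of 0.05. The ip difference was 0.59 ± 0.36 (SE) for Serpina10, 0.61 ± 0.36 for Havcr1, 0.32 ± 0.15 for Clu and 0.27 ± 0.25 for Col1a2. In a test of the difference between the routes' dose steps, 5 of 23462 probe sets passed (0.0213%), each with the larger step by iv, and none of the 5 has a name. For the named genes that rose by iv, the adjusted p of that route test ran from 0.0567 (Clca3a1) to 0.368 (Ifi27l2a), so a route difference was not established for any of them. Across the 5293 genes the iv and ip steps had a Pearson r of 0.05 and a Spearman rho of -0.02.

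**Figure D5:**
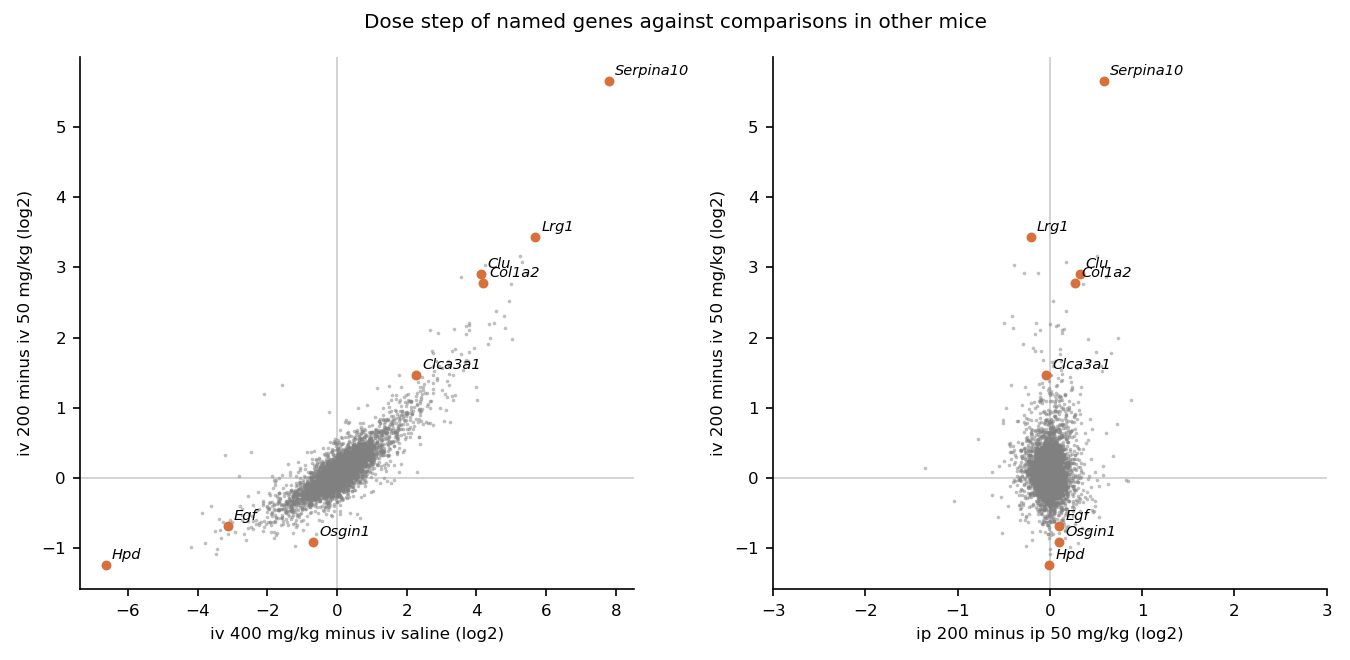
Difference in log2 intensity between iv 200 and iv 50 mg/kg (vertical axes) for 5293 named genes against iv 400 mg/kg minus iv saline (left horizontal axis) and against ip 200 minus ip 50 mg/kg (right horizontal axis). Each point is a gene and 8 genes are labelled. The genes follow a rising band on the left (r = 0.85), with Serpina10 at 7.80 and 5.65 at its upper end, and no band on the right (r = 0.05).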

How the data were processed

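The authors deposited 1 table of linear intensities for 45101 probe sets and 48 arrays, and GCRMA is the tool the submitters' processing notes name, with no version. Its log2 was taken with no offset added. Values and probe set identifiers are out of step in the deposited table: rows 751 to 3250 were given the gene of the identifier 64 rows later, rows 5001 to 11750 that of 47 rows earlier and rows 34251 to 36000 that of 16168 rows earlier, and other rows stayed unnamed. In the 36 arrays outside the comparison, pairs of probe sets so assigned to 1 gene had a median r of 0.93 (113 pairs), against -0.25 and 0.40 when shifted by 1 row, 0.88 and 0.83 when shifted by 100 rows, and 0.70 as listed. Gene names come from the platform annotation, and 10198 probe sets (7859 genes) were named.

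Probe sets above the table median (log2 3.47) in at least 6 of the 12 arrays were tested with limma 3.58.1 in R 4.3.3 (moderated test with trend, Benjamini-Hochberg adjustment over all 21865, threshold 0.05). The probe set with the highest mean stands for a gene. Named genes are all that passed, the genes of smallest p in each direction to make 10, up to 4 per gene list, and a list of fixed genes; members of small counts were also named after their values were seen. Members and lists were chosen with earlier results of these data known. The fit was tested on simulated data. The number of arrays limits the precision, and the labels do not say whether cages or injection days differed. Alternatives are given in the closing section.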

Additional observations from a re-analysis of the deposited data

Results flagged for a closer look

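Of 278 groups of 6 values examined (139 named genes in both dose groups), 14 (5.04%) held a mouse set apart from the other 5 by Dixon's criterion, which chance alone gives in about 5%. Mouse #009 at 50 mg/kg was the lowest value in 7 of them: Clca3a1 at 4.35, Cox15 at 7.99, Csnk1e at 5.25, Gbp2 at 2.67, Gbp7 at 5.88, Gsta3 at 10.12 and Oas1a at 2.87. Its array was low over all named genes, by 0.32 in the median. Also at 50 mg/kg, #012 was lowest for Calb1 at 12.25 and #0078 highest for Myc at 5.12. At 200 mg/kg, #027 was highest for the p53 target Aen at 7.04 and lowest for the clock gene Nr1d1 at 2.79, #025 was highest for the lysosomal ceramidase Asah1 at 10.24, and #028 was lowest for Rpl13a at 12.73 and highest for Scnn1a at 7.47.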

How the results depend on the processing

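Direction and size moved less than the calls. The 7 genes that rose had positive differences under every alternative in which they were tested, for example 5.21 to 6.64 for Serpina10, but adjusted p reached 0.262. These genes were picked for passing in the same arrays. A change of filter, trend or adjustment, or the addition of other groups, cannot alter a difference of group means. Only normalization, array weights and left-out mice bear on direction and size. Calls of probe sets and of named genes numbered 20 and 7; without a filter 0 and 0, with a filter at log2 6 67 and 29, with array weights 1216 and 400, with the 24 iv arrays 339 and 128, with all 48 arrays 885 and 304, and without the trend 9 and 1. Centring on the array median gave 4 named genes (15 probe sets), quantile normalization 7 (23), and adjustment over named genes only 82. Of the 1216 calls with array weights, which count divergent arrays less, 854 were higher and 362 lower. Leaving out 1 mouse gave 0 to 695 probe sets and 0 to 256 named genes. Leaving out #0078 and #027, or #009 and #027 (chosen after seeing the data, because their array medians are the highest of their groups), gave 0 and 0. Quantile normalization gave 1 call for the ip step and 3 for the route test, and no filter gave 0 for the route test. Among named genes, Lipe turned to 0.077 without #0078 and #027, Thrsp to 0.10 without #009 and #027, and Ube2l6 to 0.051 without #011 and 0.032 without #029, its range over single mice left out being -0.12 to 0.051. No paired analysis was possible because the groups share no mouse number.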

Other observations

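Medians of the gene lists that the comparisons above do not cover are given with their lowest and highest values over the 12 fits that leave out 1 mouse. The median for all named genes was 0.07, and 0.01 without #009. Of 20 immediate early genes 17 had a higher mean at 200 mg/kg, with a median of 0.35, from 0.18 (without #009) to 0.48 (without #028), and no member was free of overlap. Of 15 p53 targets 12 were higher, with a median of 0.15, from 0.03 (without #009) to 0.20 (without #011). Of 23 heat shock and protein folding genes 16 were higher, with a median of 0.09, from 0.03 (without #009) to 0.18 (without #027); the small heat shock protein gene Hspb1 differed by 1.47 ± 0.42 (SE; limma, adjusted p = 0.148). Lists whose medians took both signs were lysosome (25 genes; 0.04, from -0.03 without #025 to 0.10 without #007), hypoxia and glycolysis (18 genes; 0.02, from -0.06 without #009 to 0.07 without #027), cholesterol synthesis (14 genes; -0.10, from -0.16 without #009 to 0.05 without #027), the clock (19 genes; -0.02, from -0.20 without #028 to 0.03 without #0078) and renin and vasoactive genes (9 genes; -0.04, from -0.12 without #026 to 0.03 without #007). Under quantile normalization the lysosome and hypoxia medians were -0.04 and -0.05. Of 15 endothelial genes 9 were lower, with a median of -0.07, from -0.14 (without #009) to -0.02 (without #011), and 0.01 without #0078 and #027. Of 16 podocyte genes 11 were lower, with a median of -0.07, from -0.19 (without #009) to -0.03 (without #026).

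No marker of other tissues passed the 12-array test. Of 5 muscle, pancreas and liver genes 3 were lower, with a median of -0.53, from -0.64 (without #028) to -0.36 (without #027), and among them the albumin gene Alb differed by -0.89 ± 0.41 (adjusted p = 0.389). Of 9 adipose genes 6 were lower, with a median of -0.18, from -0.27 (without #026) to -0.05 (without #009), and 0.10 without #009 and #027. Of 4 red blood cell genes 3 were lower, with a median of -0.08, from -0.13 (without #027) to -0.01 (without #011). Cyp1b1, a cytochrome P450 whose representative probe set did not overlap between groups, differed by 0.83 ± 0.15 (adjusted p = 0.055), while another probe set of the gene gave 0.14. The metallothionein gene Mt1 differed by 0.69 ± 0.22 (adjusted p = 0.192).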
